A study of Mus musculus with 6 samples.

Results

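The Hox genes of mouse are described here by cluster and by paralogue number in sorted cells of adult hind limb muscle. Members were found by symbol alone (Hox, a cluster letter from a to d, and a number), and 39 of the 24062 genes in the table of normalised counts matched: 11 in HoxA, 10 in HoxB, 9 in HoxC and 9 in HoxD. HoxA lies on chromosome 6, HoxB on 11, HoxC on 15 and HoxD on 2 (GENCODE M21, GRCm38), and all are protein-coding. The second table, of reads scaled by a library size (CPM), covers 4939 genes and holds 2 of the 39, Hoxc10 and Hoxc6. Where both are known, that size was not the read total of the library.

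Hox genes encode homeodomain transcription factors that give body regions and limb segments their identity along the axis. They lie in 4 clusters, HoxA to HoxD, in which the order on the chromosome follows the order of expression along the body. Genes at the same place in different clusters are paralogues and share a number. Low numbers are used towards the head, and the highest numbers in the tail and the outer limb. In adult connective tissue cells Hox patterns persist and record the site of origin, and fibroblasts of the limbs are known for HoxA, HoxC and HoxD genes of high number. Blood-forming cells use genes of the HoxA and HoxB clusters. Hox proteins bind DNA together with TALE homeodomain cofactors of the Pbx, Meis and Pknox families.

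All mice were adult, of the C57BL/6 background, and had 3 tamoxifen treatments and muscle harvest 10 days later, by the labels. The Twist2 line (genotype Tw2-CreERT2/+;R26-tdTO+) carries tamoxifen-dependent Cre under Twist2 and the red reporter tdTomato. Its tdTomato-positive cells are called Tw2pos (n = 2) and its negative cells Tw2neg (n = 2). The Pax7 line (Pax7-CreERT2/+;R26-tdTO+), in which Cre marks satellite cells, gave 1 library of positive cells (Pax7pos) and 1 of negative cells (Pax7neg). Every library therefore comes from Cre-bearing, tamoxifen-treated mice, and the negative fractions are mixtures of all cells without the label. The labels do not say whether replicates came from separate animals, and the p-values cover no more than the variation between the libraries at hand, which can be technical.

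The Twist2 libraries held 10902318 to 13205751 reads, of which the 39 Hox genes took 1765 and 1931 reads in Tw2pos and 1927 and 994 in Tw2neg. That was 0.0076% to 0.0162% of a library, so single Hox genes rested on few reads, from 4 to 424 per library for those that passed and for Hoxb4 and Hoxb8. The Tw2neg replicates stood apart. Replicate 1 was above replicate 2 in 30 of the 31 Hox genes tested, Hoxd13 being the exception, with a median log2 difference of 0.94, while over all 14155 genes tested replicate 1 was above in 49.6% with a median of −0.01. The summed normalised counts of marker genes in Tw2neg replicates 1 and 2 were 303240 and 161032 for 9 fibroblast markers, 71751 and 31182 for 6 tendon markers, 32562 and 11812 for 7 endothelial markers, and 74480 and 98266 for 12 leukocyte markers. Tw2pos had 1215671 and 1316076 for fibroblast, 6423 and 4594 for endothelial and 1734 and 2158 for leukocyte markers. Of those lists 6 of 9 fibroblast markers and 6 of 6 tendon markers passed as higher in Tw2pos, and 12 of 12 leukocyte and 6 of 7 endothelial markers as lower. In such bulk samples fewer cells of a type and less RNA per cell cannot be told apart, and the part of cell mixture in the Hox differences was not tested.

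Promoters are shown for members whose levels are described in detail below and whose window holds no annotated exon: Hoxa10, Hoxd8 and Hoxd13, which passed as higher in Tw2pos, and Hoxb4 and Hoxb8, which were lower in both Tw2pos libraries. Each is the 250 bases before the start of the RefSeq gene (GRCm38.p6), 5′ to 3′ on the gene's strand, from chr6:52240855-52241104 (minus strand) for Hoxa10, chr2:74704365-74704614 (plus) for Hoxd8, chr2:74667975-74668224 (plus) for Hoxd13, chr11:96318017-96318266 (plus) for Hoxb4 and chr11:96281655-96281904 (plus) for Hoxb8. Capitals mark 3 promoter motifs, on either strand: the TATA box with the letters TATAAA, the box named for its letters CCAAT, and the GC box with GGGCGG.
Hoxa10: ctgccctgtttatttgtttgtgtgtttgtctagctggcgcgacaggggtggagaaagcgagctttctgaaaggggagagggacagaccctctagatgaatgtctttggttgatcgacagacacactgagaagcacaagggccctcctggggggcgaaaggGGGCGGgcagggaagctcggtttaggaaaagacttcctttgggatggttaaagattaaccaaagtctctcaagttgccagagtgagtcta
Hoxd8: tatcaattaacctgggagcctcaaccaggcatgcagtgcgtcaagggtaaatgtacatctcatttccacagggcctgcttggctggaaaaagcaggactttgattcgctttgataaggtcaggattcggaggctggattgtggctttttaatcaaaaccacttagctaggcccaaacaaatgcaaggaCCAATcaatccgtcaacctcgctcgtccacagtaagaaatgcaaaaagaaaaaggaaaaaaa
Hoxd13: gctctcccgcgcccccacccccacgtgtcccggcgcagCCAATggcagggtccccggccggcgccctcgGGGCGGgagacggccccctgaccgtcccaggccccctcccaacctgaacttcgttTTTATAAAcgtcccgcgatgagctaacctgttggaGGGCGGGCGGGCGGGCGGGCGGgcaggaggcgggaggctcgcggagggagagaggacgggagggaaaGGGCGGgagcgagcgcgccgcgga
Hoxb4: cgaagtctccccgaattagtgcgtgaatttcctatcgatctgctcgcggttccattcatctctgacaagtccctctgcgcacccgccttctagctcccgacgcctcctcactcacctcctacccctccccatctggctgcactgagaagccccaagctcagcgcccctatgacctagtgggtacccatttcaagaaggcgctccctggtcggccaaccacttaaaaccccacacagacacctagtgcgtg
Hoxb8: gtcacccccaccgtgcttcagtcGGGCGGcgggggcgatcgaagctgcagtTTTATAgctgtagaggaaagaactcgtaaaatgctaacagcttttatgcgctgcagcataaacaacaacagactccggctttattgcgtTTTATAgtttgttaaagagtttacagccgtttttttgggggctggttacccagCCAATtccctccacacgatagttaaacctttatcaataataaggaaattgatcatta
Hoxb8 has TATAAA at 2 places and Hoxd13 at 2 that overlap, while the windows of Hoxa10, Hoxd8 and Hoxb4 do not hold those letters. GGGCGG occurs at 7 places in the Hoxd13 window, most of them in 1 overlapping run, and at 1 place in those of Hoxa10 and Hoxb8. Of the 39 members 22 matched a RefSeq promoter. Over those 22 windows TATAAA was in 3, CCAAT in 13 and GGGCGG in 9, against 12.4%, 33.8% and 32.7% of all 32851 promoter windows of the same length. The median GC content was 56.8% over the Hox windows and 52.4% over all windows, with a median of 12 and 6 CpG. The E-box letters CANNTG, bound by the helix-loop-helix family to which Twist2 belongs, were in 16 Hox windows and in 66.2% of all windows. The type CATATG was in 0 Hox windows and 3.46% of all, and the Hox and Pbx letters TGATTNAT in 1 Hox window and 2.82% of all. Both strands were searched for each motif, and a match is a description of the letters and not a binding site.

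The main comparison asked how Hox expression differed between the cells with and without the label in the Twist2 line. All 7 tested genes of the HoxC cluster rose in Tw2pos, as did Hoxa10 and Hoxa11 in HoxA and Hoxd8, Hoxd11 and Hoxd13 in HoxD. No HoxB gene passed in either direction, and 6 of 8 tested lay below Tw2neg in both Tw2pos libraries. Of the 39 members, 5 had no read in any library (Hoxb1, Hoxb13, Hoxc12, Hoxd1 and Hoxd12), where a count of 0 allows up to 3 reads per library, or 2.40 to 3.82 normalised counts, by counting error only. Another 3 had a mean under 10 normalised counts and were not tested. Of the 31 tested with limma at an adjusted p under 0.05, 12 passed as higher, 0 as lower and 19 did not pass. Over all genes 18.7% passed as higher and 20% as lower. The Tw2pos libraries lay above both Tw2neg libraries in 16 Hox genes, below both in 6, and overlapped in 9, against 37.1% above and 39.2% below over all genes. The median log2 difference was 0.82 over the Hox genes and −0.04 over all genes. At an unadjusted p under 0.05, 3 Hox genes were lower (Hoxb4, Hoxb5 and Hoxb8). On the recovered reads edgeR called 12 higher and 0 lower, and DESeq2 12 higher and 1 lower (Hoxb4).

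**Figure D1:**
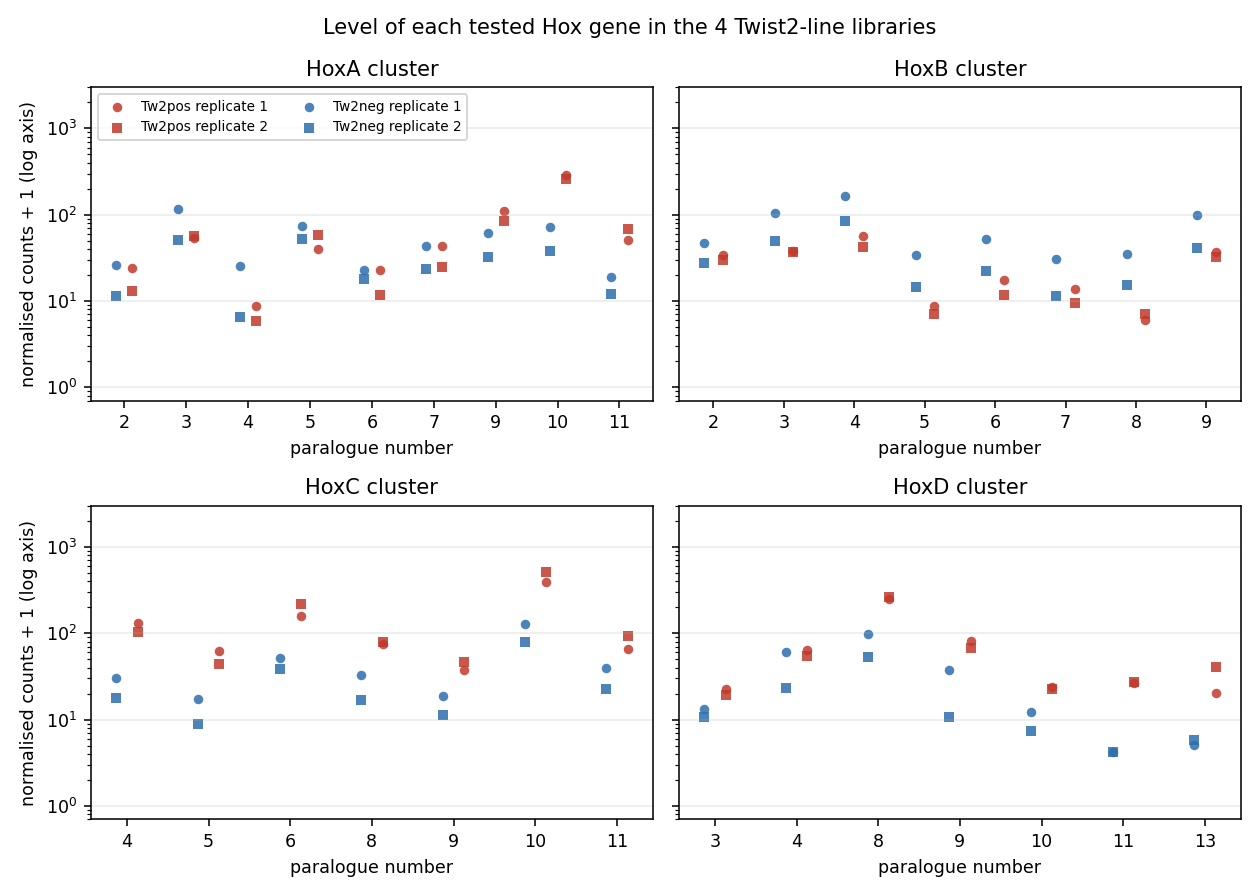
Normalised count plus 1 (log axis) of each of the 31 tested Hox genes by paralogue number, with 1 panel per cluster, red for Tw2pos, blue for Tw2neg, circles for replicate 1 and squares for replicate 2. The red points lie above the blue ones across the HoxC panel and at numbers 9 to 11 of HoxA, and below them for 6 HoxB genes.

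HoxC gave the most uniform picture: all 7 tested members passed as higher in Tw2pos, with log2 differences from 1.38 to 2.32 and a median of 2.07. Hoxc10 (102966796 to 102971893 on chromosome 15, plus strand), used in the lumbar region and the hind limb, was the Hox gene with most reads over the 4 libraries, though in Tw2neg Hoxb4 had more. It had 392.7 and 511.4 normalised counts in Tw2pos and 128.5 and 79.2 in Tw2neg, from 308, 424, 158 and 99 reads. Both Tw2pos libraries lay above both Tw2neg libraries, and the log2 difference was 2.14 (SE 0.31, limma adjusted p = 0.00438). Hoxc6, a gene of the trunk and of limb mesenchyme, had 159.4 and 217.1 normalised counts in Tw2pos and 50.4 and 37.6 in Tw2neg (log2 difference 2.07, SE 0.31, adjusted p = 0.0052). Hoxc4, at the low-number end of the cluster, had 130.0 and 101.3 against 29.3 and 16.8, with the largest log2 difference in HoxC, 2.32 (SE 0.39, adjusted p = 0.00742). The groups did not overlap for either gene. These 3 kept the call in every alternative run.

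The other 4 HoxC genes had smaller counts. Hoxc5 had 61.2 and 43.4 normalised counts in Tw2pos and 16.26 and 7.996 in Tw2neg (log2 difference 2.08, adjusted p = 0.0207). Hoxc8, which patterns the thoracic spine and the neurons that serve the forelimb, had 75.2 and 78.4 against 31.7 and 16.0 (1.72, adjusted p = 0.0242). In both genes the Tw2pos libraries lay above the Tw2neg libraries, and both calls ended without Tw2pos replicate 1 or without replicate 2. Hoxc9 had 37.0 and 45.8 normalised counts in Tw2pos and 17.9 and 10.4 in Tw2neg (1.52, adjusted p = 0.0401). Hoxc11, which acts in the hind limb, had 65.0 and 91.7 against 39.0 and 21.6 (1.38, adjusted p = 0.0450). These 2 calls were the closest to the threshold. Both ended without either Tw2pos library, without Tw2neg replicate 2, with no filter on level and under library total scaling. The Hoxc9 call also ended with DESeq2, and that of Hoxc11 with a filter at a mean of 50. Hoxc13, not tested, had 1 and 5 reads in Tw2pos and 1 and 0 in Tw2neg. The GENCODE exons of Hoxc5 and Hoxc10 share 166 bases, so reads there cannot be assigned to 1 of them with certainty.

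In HoxA the tested genes of number 9 to 11 stood apart from those of lower number, without a steady rise along the numbers. Hoxa13, not tested, had 0 and 1 reads in Tw2pos and 1 and 0 in Tw2neg. The members of number 2 to 7 had log2 differences between −0.87 and 0.05 and none passed, while those of number 9, 10 and 11 lay above both Tw2neg libraries. Hoxa10, which with its paralogues patterns the upper hind limb and the lumbar spine, had 285.6 and 258.1 normalised counts in Tw2pos and 71.6 and 36.8 in Tw2neg. The log2 difference was 2.38 (SE 0.37, adjusted p = 0.0054), the largest in the cluster, and it kept the call in every alternative run. Hoxa11, which patterns the middle limb segment, had 49.7 and 67.5 against 17.9 and 11.2 (1.96, SE 0.42, adjusted p = 0.0162), and its call ended without either Tw2pos library. Hoxa9 had a log2 difference of 1.11 that did not pass (95% interval 0.10 to 2.12, adjusted p = 0.0783). It passed under quantile normalization, with the replicate number as a block and without Tw2neg replicate 1. The neighbours Hoxa7, with 0.05 (95% interval −1.15 to 1.25), and Hoxa9 are 1245 bases apart on chromosome 6. The signs of Hoxa2 and Hoxa7 turned under library total scaling (−0.39 for each), and those of Hoxa5 and Hoxa6 under quantile normalization (0.0040 and 0.081). Hoxa3 had −1.09 without Tw2neg replicate 2 and 0.12 without Tw2neg replicate 1. As a share of the HoxA reads of each library, Hoxa9, Hoxa10, Hoxa11 and Hoxa13 took 69.2% and 70.8% in Tw2pos and 32.4% and 33.1% in Tw2neg. The group means were 70.0 ± 1.12% and 32.8 ± 0.499% (SD, n = 2), apart by more than the spread between replicates, and the exact permutation p of 0.333 is the smallest that 2 libraries against 2 allow.

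HoxD showed a similar split between low and high numbers, with Hoxd8 among its passing genes. Hoxd8, at 247.3 and 259.3 normalised counts in Tw2pos and 98.4 and 52.0 in Tw2neg, had the most normalised counts of the cluster, also per kb of exon (log2 difference 1.81, SE 0.35, adjusted p = 0.0113). Its call ended without Tw2pos replicate 2. Hoxd11, which acts with Hoxa11 in the middle limb segment, had 25.5 and 26.5 normalised counts in Tw2pos and 3.25 and 3.20 in Tw2neg, from 20, 22, 4 and 4 reads. Its log2 difference of 2.68 (SE 0.49, adjusted p = 0.00963) was the largest of any Hox gene tested, and its replicates nearly coincided in both groups. Hoxd13, the gene of hands and feet, had 19.1 and 39.8 against 4.07 and 4.80 (2.40, SE 0.56, adjusted p = 0.0200), from 15 and 33 reads against 5 and 6. Both kept the call in every alternative that tested them. Hoxd9 (1.90, 95% interval 0.36 to 3.45, adjusted p = 0.0576) and Hoxd10 (1.28, 95% interval 0.07 to 2.50, adjusted p = 0.0863) lay above both Tw2neg libraries and did not pass. Both passed under quantile normalization and without Tw2neg replicate 1, Hoxd9 also with a pseudocount of 5, with DESeq2 and with the replicate block, and Hoxd10 without a variance trend. Hoxd3 and Hoxd4, whose GENCODE exons share 388 bases, had 0.82 and 0.66 and did not pass either. Both Tw2pos libraries lay above both Tw2neg libraries for Hoxd3, and the groups overlapped for Hoxd4. Hoxd4 had 1.35 without Tw2neg replicate 1, and its sign turned without Tw2neg replicate 2 (−0.032).

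HoxB ran the other way in its values, and none of its 8 tested genes passed. Hoxb4, known for its role in blood stem cell expansion, was the HoxB gene with the highest mean. It had 56.1 and 41.0 normalised counts in Tw2pos and 165.1 and 84.0 in Tw2neg, from 44, 34, 203 and 105 reads. Both Tw2pos libraries lay below both Tw2neg libraries, and the log2 difference of −1.28 (SE 0.41, 95% interval −2.29 to −0.27) had an adjusted p of 0.0530 with limma. Hoxb8, known for blocking myeloid maturation when overexpressed, had 5.10 and 6.03 normalised counts against 34.2 and 14.4, from 4, 5, 42 and 18 reads (−1.83, SE 0.59, adjusted p = 0.0523). Hoxb3, Hoxb5, Hoxb6 and Hoxb9 were likewise lower in both Tw2pos libraries, with −0.93, −1.52, −1.25 and −0.88. Hoxb2 (−0.16) and Hoxb7 (−0.72) overlapped, and the sign of Hoxb2 turned under quantile normalization (0.25). How many HoxB genes passed as lower depended on the settings. It was 5 under library total scaling, which moved the median of all genes from −0.04 to −0.50, 1 with DESeq2 (Hoxb4) and 1 without a variance trend (Hoxb8). It was 4 with the replicate number as a block, in a design whose labels do not say what a number shares. With 1 Tw2neg library left out, the HoxB median moved both ways from the −1.09 over 8 genes of the main run. It was −1.64 over 8 genes without replicate 2 and −0.32 over 6 without replicate 1 (Hoxb9 at −0.25). The last median covers fewer genes, as some fell under the level filter, so part of that shift comes from the change of genes.

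**Figure D2:**
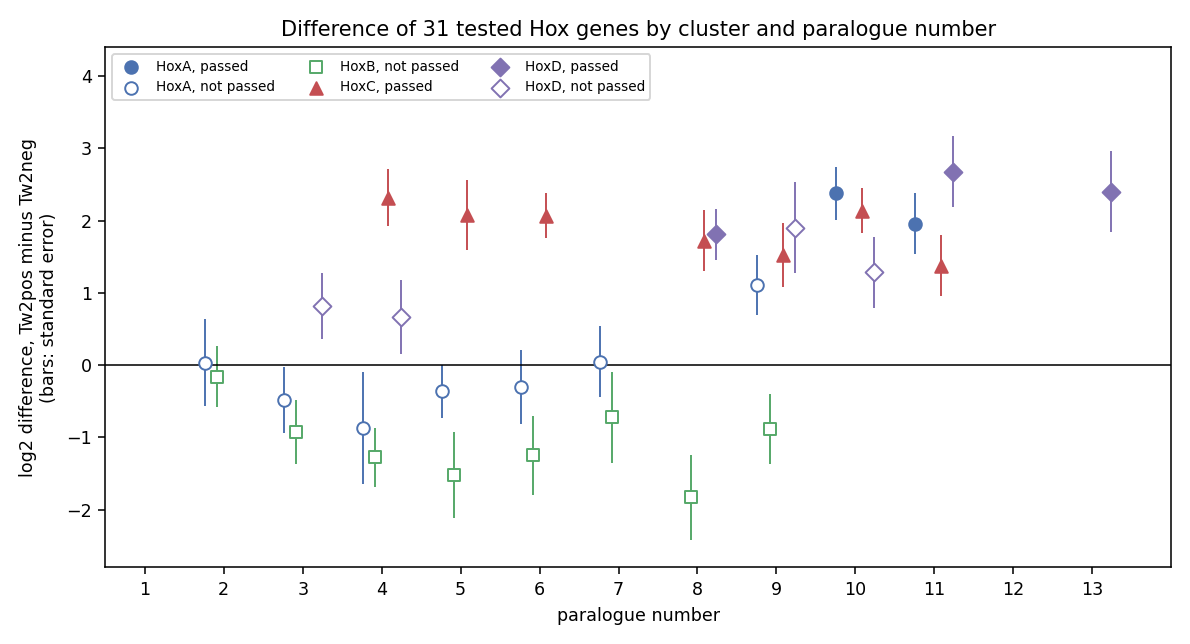
Log2 difference (Tw2pos minus Tw2neg, bars the standard error) of the 31 tested Hox genes against paralogue number, by cluster; filled symbols passed at a limma adjusted p under 0.05. HoxC lies between 1.38 and 2.32 at each number, and HoxB lies below 0. HoxA lies between −0.87 and 0.05 at numbers 2 to 7 and between 1.11 and 2.38 at 9 to 11.

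Read by paralogue number, the 5 tested genes of number 1 to 3 did not pass, while 5 of 15 of number 4 to 8 and 7 of 11 of number 9 to 13 passed as higher, against 18.7% of all genes. The 5 in the middle group were Hoxc4, Hoxc5, Hoxc6, Hoxc8 and Hoxd8. HoxC has no member of number 1 to 3, and it gave 4 of the 5 in the middle group and 3 of the 7 in the last. Number and cluster are thus mixed in these counts. In the last group the 10 genes outside HoxB lay above both Tw2neg libraries, and Hoxb9 lay below both. Within a number the clusters differed in sign: in group 4, Hoxc4 stood at 2.32, Hoxd4 at 0.66, Hoxa4 at −0.87 and Hoxb4 at −1.28. In group 8 Hoxc8 and Hoxd8 stood at 1.72 and 1.81 and Hoxb8 at −1.83. All 3 tested genes of group 11 (Hoxa11, Hoxc11 and Hoxd11) passed as higher. Over all Hox reads, numbers 9 to 13 took 50.03% and 53.7% in Tw2pos and 31.3% and 32.0% in Tw2neg. Within HoxC that share did not separate the groups, with 53.8% and 59.8% in Tw2pos and 59.3% and 58.6% in Tw2neg.

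The shares of HoxB, HoxC and HoxD in the Hox reads differed between the groups by more than between replicates, and that of HoxA did not. HoxB gave 9.07% and 7.25% of the Hox reads in Tw2pos and 35.8% and 32.5% in Tw2neg (8.16 ± 1.28% and 34.1 ± 2.31%, SD, n = 2). The 95% Wilson intervals of the single libraries, which cover counting error only, ran from 6.18% to 10.5% in Tw2pos and from 29.7% to 37.9% in Tw2neg. HoxC gave 41.0% and 47.0% in Tw2pos and 20.03% and 23.8% in Tw2neg (44.0 ± 4.28% and 21.9 ± 2.70%). HoxD gave 21.4% and 20.9% against 14.4% and 13.6%, and HoxA 28.6% and 24.9% against 29.8% and 30.1%. The HoxA difference of −3.23 percentage points became 0.29 without Hoxc10 (exact permutation p = 1.0). The 4 exact permutation tests gave p = 0.333 each, also after adjustment over the 4, the smallest value this design allows. The Tw2neg replicates, though apart in level, were close in makeup. In summed normalised counts HoxB had 204 and 169 in Tw2pos and 560 and 258 in Tw2neg, and HoxC had 922 and 1095 against 314 and 189. The sum of Tw2neg replicate 1 was 1.95-fold that of replicate 2 for HoxA, 2.17-fold for HoxB, 1.66-fold for HoxC and 2.09-fold for HoxD. In the same libraries the marker sum was 3.21-fold for pericytes, 2.76-fold for endothelium, 2.30-fold for tendon, 2.05-fold for Schwann cells, 1.88-fold for fibroblasts, 1.73-fold for satellite cells, 1.27-fold for erythroid cells and 0.758-fold for leukocytes. Each sum leans on its most abundant genes and is not a measure of cell number. Chodl, with 1607 and 721 in Tw2neg replicates 1 and 2, led the satellite sum. It passed as higher in Tw2pos (2.46), while 3 of the 7 satellite markers passed as lower and 3 did not pass. Pdgfrb, with 2564 and 978, led the pericyte sum and passed as higher, and the other 4 pericyte markers did not pass. The part of the listed cell types in the Hox reads was not tested.

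**Figure D3:**
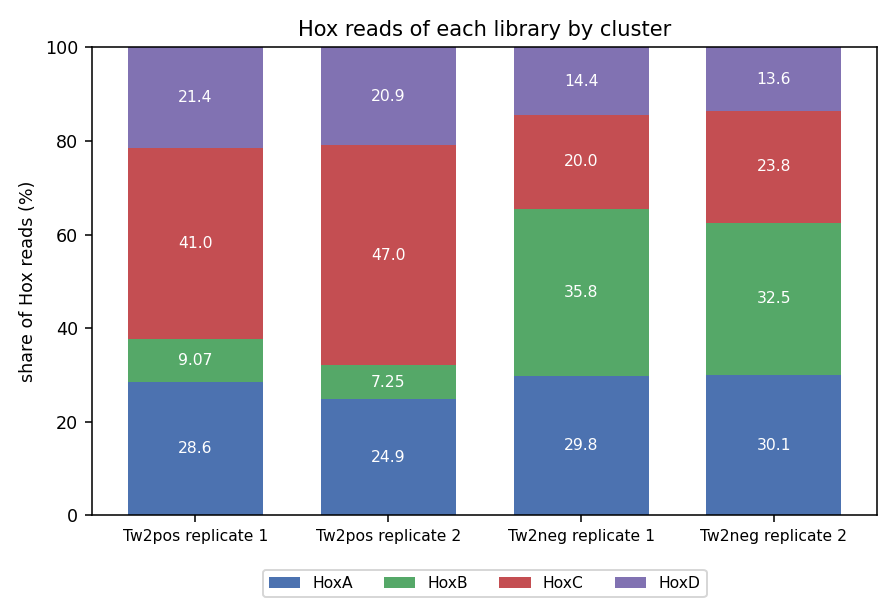
Share of the Hox reads of each Twist2-line library (%, 0 to 100) that fell in HoxA, HoxB, HoxC and HoxD, as stacked bars with 1 bar per library. HoxB takes 7.25% and 9.07% in Tw2pos and 32.5% and 35.8% in Tw2neg, and HoxC takes the larger share in Tw2pos.

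Levels per length of annotated exon allow a rough comparison between genes. The lengths join all GENCODE M21 exons of a gene, used or not in these cells. The annotation behind the counts was not given, so the order is approximate. In normalised counts per kb of exon, Hoxc10 was highest in both groups, with a mean of 236.8 in Tw2pos and 54.4 in Tw2neg. In Tw2pos it was followed by Hoxd8 (92.3), Hoxa10 (83.1), Hoxc6 (78.2) and Hoxc4 (45.0). In Tw2neg it was followed by Hoxb4 (48.5), Hoxa5 (33.1), Hoxd8 (27.4) and Hoxb9 (26.7). Genes of HoxA, HoxC and HoxD thus filled the top places in Tw2pos, while 2 HoxB genes were among the top 5 of Tw2neg.

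The comparison with the Pax7 line was possible for Hoxc10 and Hoxc6. Both were higher in the label-positive library than in the label-negative libraries of each line, and no difference between Tw2pos and Pax7pos passed the test for Hoxc10. All genes of the authors' CPM table differ from Tw2neg by a deposited log2 difference of at least 1 in 1 or more of 3 comparisons. That was not the only condition, as Hoxa10 is absent with 23.1 and 20.9 CPM in Tw2pos and 5.75 and 2.94 in Tw2neg. The deposited difference of Pax7pos from Tw2neg was 1.42 for Hoxc10 and 1.45 for Hoxc6. The 2 genes were thus selected in part on the values compared here, Pax7pos among them. Hoxc10 had 31.7 and 41.3 CPM in Tw2pos, 24.03 in Pax7pos, 10.3 and 6.33 in Tw2neg and 9.48 in Pax7neg. The exact Poisson intervals (95%, counting error only) of the Pax7 libraries were 21.02 to 27.3, from 230 reads, and 7.85 to 11.4, from 118 reads. Pax7pos lay between the Tw2pos and the negative libraries. Pax7neg lay within the range of the 2 Tw2neg libraries. Hoxc6 had 12.9 and 17.5 CPM in Tw2pos, 11.4 in Pax7pos (9.35 to 13.74, 109 reads), 4.05 and 3.00 in Tw2neg and 6.59 in Pax7neg (5.24 to 8.18, 82 reads). The order of the groups was that of Hoxc10, except that Pax7neg was above both Tw2neg libraries.

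Between Tw2pos and Pax7pos the log2 difference of CPM plus 1 of Hoxc10 was 0.57 (SE 0.42, 95% interval −0.40 to 1.55, limma adjusted p = 0.267), where 33.9% of the 4790 genes tested passed as higher and 25.7% as lower. That interval still holds differences above 2-fold. Between Tw2neg and Pax7neg it was −0.20 (95% interval −1.18 to 0.77, adjusted p = 0.871), where 0.146% of genes passed as higher and 0.0835% as lower, and its sign turned without Tw2neg replicate 2 (0.11). The difference of the label effects between the lines was 0.77 (95% interval −0.61 to 2.16, adjusted p = 0.327), where 23.4% passed as higher and 12.8% as lower. It passed without Tw2neg replicate 1 (1.09, adjusted p = 0.0334). These contrasts share libraries, and the error of each Pax7 library was taken from the Twist2 replicates. Hoxc6, with a mean of 9.24 CPM, was under the filter of 10 CPM. In the fit without a filter its 3 contrasts were 0.37, −0.76 and 1.13, and none passed (adjusted p = 0.480, 0.475 and 0.185). Pax7pos and Pax7neg, with 1 library each and no test, had a ratio of CPM of 2.53 for Hoxc10 and 1.73 for Hoxc6. On log2 of CPM plus 10 the differences were 0.80 and 0.37, and 0 of 2 reached a log2 size of 1, against 18.3% of 4939 genes higher and 33% lower. With a pseudocount of 1, Hoxc10 reached it (1.26).

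**Figure D4:**
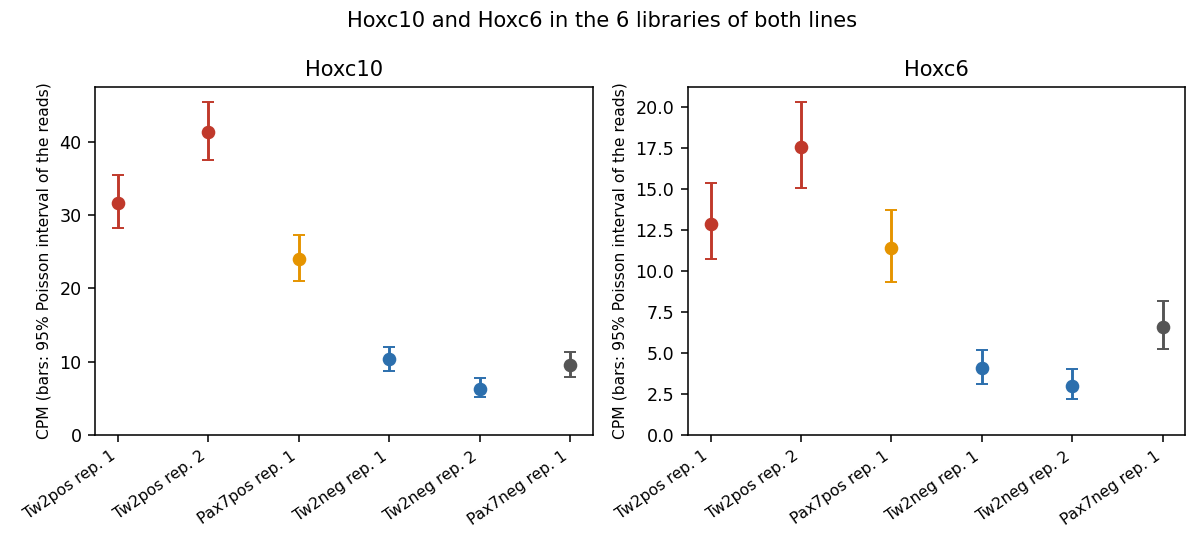
CPM of Hoxc10 (left) and Hoxc6 (right) in each of the 6 libraries, with 95% Poisson intervals of the reads as bars and axes from 0. For Hoxc10 the Tw2pos libraries (31.7 and 41.3) lie above Pax7pos (24.03), and Pax7pos above the 3 negative libraries (6.33 to 10.3).

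The cofactors and regulators of Hox genes were counted from lists. Of 9 TALE cofactor genes 5 passed as higher in Tw2pos and 1 as lower, with a median log2 difference of 0.94, where 18.7% of all genes passed as higher and 20% as lower with a median of −0.04. Meis1, a cofactor that binds DNA with Hox proteins, had the largest passing difference, 1.88, from 304.7 and 283.4 normalised counts in Tw2pos and 96.0 and 64.8 in Tw2neg (adjusted p = 0.0048). Pknox2 (1.84), Meis2 (1.76) and Meis3 (0.94), named after their values were seen, passed as higher too. Pbx2 passed as lower (−0.93), and Pknox1 had −0.29 and did not pass. Against Pax7pos, 5 cofactor genes were tested and 1 passed, Pknox1, as lower in Tw2pos (−1.85, adjusted p = 0.0019), where 33.9% of all genes passed as higher and 25.7% as lower.

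Retinoic acid, made by Aldh1a enzymes and broken down by Cyp26 enzymes, sets Hox expression in the embryo. Of 19 genes of retinoid signalling, Cdx factors and Gdf11, 16 were tested, 10 passed as higher, 1 as lower and 5 did not pass, with a median of 1.24, against 18.7% higher and 20% lower over all genes. Rarg, a retinoic acid receptor, had a log2 difference of 1.11, and Cyp26b1 1.92 from 812 and 1643 normalised counts against 483 and 191. Crabp1, a retinoic acid carrier, had the largest, 4.45, from 53.5 and 149.6 against 4.07 and 2.40. Rara, another receptor, was lower (−0.69), and Rxra had 0.73 and did not pass. Cdx1, Cdx2 and Cdx4, early activators of Hox clusters in the embryo, had no reads.

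Polycomb proteins keep Hox clusters silent and Trithorax proteins keep them active. Of 21 Polycomb genes 2 passed as higher and 9 as lower, with a median of −0.58, against 18.7% and 20% of all genes. Cbx6, a reader of the repressive mark, had the highest mean count and the largest passing rise (1.62), Phf19, a partner of the writing complex, the largest fall (−1.72), and Phc2 was lower (−1.16) while Phc3 had 0.08 and did not pass. Of 12 Trithorax and demethylase genes 2 passed as lower and 10 did not pass, with a median of −0.33, and the share called lower was not above the 20% of all genes. Kmt2b had −0.88 and the insulator protein Ctcf −0.71. Kmt2a, Kdm6b and Ash1l, the 3 of highest mean count, did not pass (−0.38, 0.04 and 0.20). Leukocyte markers were lower in the Tw2pos libraries too, and their part in the Polycomb and Trithorax genes that passed as lower was not tested.

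Around the coding genes, 2 noncoding RNA genes of the clusters had enough reads to test, and both passed as higher in Tw2pos. Hotair, an antisense transcript of the HoxC cluster next to Hoxc11, had 40.8 and 86.8 normalised counts against 17.1 and 10.4 (2.08, adjusted p = 0.0244). Hoxa11os, opposite Hoxa11, had 53.5 and 36.2 against 16.3 and 7.20 (1.92, adjusted p = 0.0325). Without knowledge of strand, reads of these genes and their coding partners cannot be told apart where they overlap. Of the 26 names on that list 15 were in the table, and 7 of those had no reads. Of 25 genes that flank the clusters 20 were tested, and 3 passed as higher, 4 as lower and 13 did not pass, with a median of 0.07, near the 18.7% and 20% of all genes. Jazf1, beyond HoxA, had the largest rise (1.27). Nfe2, a blood cell factor beyond HoxC, had the largest fall (−6.25), from 3.82 and 1.21 normalised counts against 244.0 and 251.9. Tax1bp1, Cbx5 and Atp5g3, the 3 of highest mean count, had −0.31, 0.51 and 0.01 and did not pass.

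**Figure D5:**
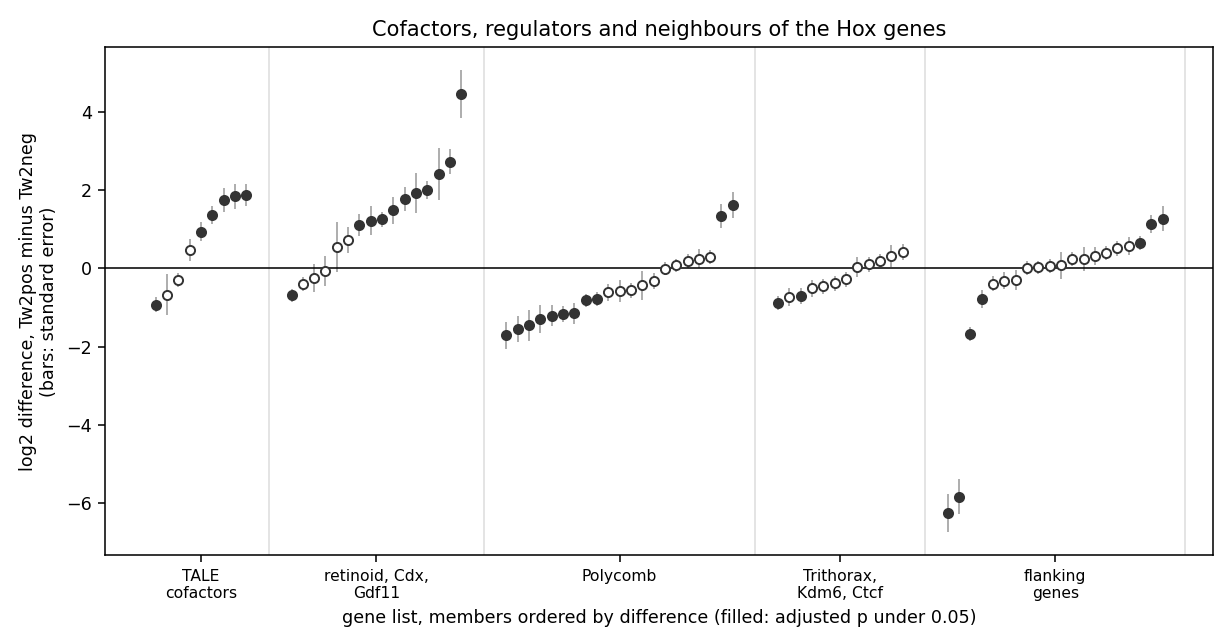
Log2 difference (Tw2pos minus Tw2neg, bars the standard error) of the tested genes of 5 lists, ordered by size within each list; filled points passed at a limma adjusted p under 0.05. Cofactor and retinoid genes lie mostly above 0 (medians 0.94 and 1.24), Polycomb genes mostly below (median −0.58), and flanking genes around 0 (median 0.07).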

How the data were processed

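RNA from 6 sorted cell samples was sequenced. The submitters' processing notes name TopHat2 2.0.0, DESeq2 1.6.3 and GRCm38/mm10. The counter, annotation and strand were not given in the sources used here. As deposited by the authors, the files hold a normalised signal per gene for the 4 Twist2 libraries (normalised counts) and, for 4939 genes, CPM and log2 ratios of CPM plus 1, with Twist2 groups as means. Each column's values were whole multiples of 1 read (100% within a tolerance of 0.01), and the CPM of single Twist2 libraries was rebuilt from these reads. The 4939 genes of the CPM table alone held 6016469 Pax7pos and 7565797 Pax7neg reads, and totals over all genes are not known for these libraries. The library sizes behind the CPM were 9572963 for Pax7pos and 12445892 for Pax7neg. In the Twist2 line these sizes were not the read totals. They were 9710688 against 10902318 reads in Tw2pos replicate 1, and 15312683 against 13205751 in Tw2neg replicate 1.

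Tw2pos and Tw2neg were compared with limma 3.58.1 (R 4.3.3, variance trend) on log2 of normalised counts plus 1, for genes with a mean of at least 10, and the 6 libraries on log2 of CPM plus 1 with a mean of at least 10 CPM. P-values were adjusted by Benjamini-Hochberg over all genes tested, two-sided, threshold 0.05. Pax7pos and Pax7neg were compared on log2 of CPM plus 10 without a test. Alternatives used edgeR 4.0.16 and DESeq2 1.42.0 on recovered reads, other pseudocounts, filters and scalings, a replicate block, and each Twist2 library left out. Scripts were tested on simulated data. Replicates differed beyond counting noise, with a chi-square per degree of freedom of 13.7 in Tw2pos and 69.6 in Tw2neg. Positions and exon lengths are from GENCODE M21. The members and gene lists were chosen with earlier results of these data known. By the naming rule, values in every library are given for Hox genes that passed, the highest of each cluster and those in the CPM table, and from each list the 3 of highest mean and the largest passing difference in each direction. Values of some genes are not reported here.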

Additional observations from a re-analysis of the deposited data

How the results depend on the processing

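The 12 Hox genes higher in Tw2pos became 6 with a filter at a mean of 50, where 14 were tested, and 5 to 16 when 1 Twist2 library was left out (7 and 5 without Tw2pos replicates 1 and 2, 16 and 10 without Tw2neg replicates 1 and 2). The 0 lower became 5 under library total scaling, 1 with DESeq2 and 1 without a variance trend, and 0 to 7 with 1 library left out, the 7 being without Tw2neg replicate 2. With the replicate block 14 were higher and 4 lower. The numbers pair nothing named in the labels, and the deviations of libraries with the same number had a Pearson r of 0.26 across 14155 genes, which are not independent. Hoxa10, Hoxc4, Hoxc6, Hoxc10, Hoxd11 and Hoxd13 kept the call in every alternative that tested them. Signs turned only in genes that had not passed: Hoxa2 under library total scaling (−0.39), edgeR (−0.0091) and DESeq2 (−0.013), Hoxa7 under library total scaling (−0.39), and Hoxa5 (0.0040), Hoxa6 (0.081) and Hoxb2 (0.25) under quantile normalization. With 1 library left out the range held both signs for Hoxa2 (−0.57 to 0.63), Hoxa3 (−1.09 to 0.12), Hoxa6 (−0.77 to 0.17), Hoxa7 (−0.40 to 0.49), Hoxb2 (−0.54 to 0.22) and Hoxd4 (−0.032 to 1.35), and for Hoxc10 between Tw2neg and Pax7neg (−0.52 to 0.11, the higher without Tw2neg replicate 2). The difference of label effects of Hoxc10 ran from 0.46 to 1.09 and passed at 1.09, without Tw2neg replicate 1. With a pseudocount of 1 in the Pax7 line Hoxc10 had 1.26 and Hoxc6 0.71, and 1 gene passed a log2 size of 1. In alternatives added after seeing the data, the HoxA share (Tw2pos minus Tw2neg) went from −3.23 to 0.29 percentage points without Hoxc10 and to −6.56 per kb of exon. The causes were not tested. Low read counts limit the precision, as in Hoxa4, with 4 to 30 reads per library.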
